A study of Mus musculus with 24 samples.

Results

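Genes for ion channels and gap junctions were followed in hearts of mice with experimental autoimmune myocarditis (EAM), an inflammation of heart muscle provoked by immunization with a piece of cardiac myosin. The set holds 35 of the 41388 genes in the count table: 32 that encode channel subunits or connexins used by heart tissue, and 3 (Kcna3, Kcnn4 and Hvcn1) that encode channels of leukocytes. It was drawn up by function, as a list of symbols matched to Ensembl identifiers. Messenger RNA of young adult wild type Balb/c males (BALB/cAnNCrl in the study's methods), from part of each heart, was sequenced 10, 15 and 21 days after the first immunization (D10, D15, D21), with 4 EAM and 4 control hearts at each time. EAM mice received MyHC-α peptide in SCFA, a supplemented Freund's adjuvant, on days 0 and 7, with PTX (pertussis toxin) on day 0. Control mice received SCFA with PBS and the same PTX, so adjuvant and toxin are common to all 24 hearts and the peptide is the difference. Total counts ranged from 15814863 to 24980864 per library. The study describes the hearts of a group as those of separate mice, without saying which portion of each heart was taken. Where they could, the authors sequenced inflamed hearts, since myocarditis may not develop in every immunized mouse. Leukocyte levels in the EAM hearts are therefore in part fixed by that choice. At D10 they report raised heart leukocytes (CD45-positive cells) or cardiac troponin I in none of the EAM mice.

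The heartbeat is carried by ions crossing the cardiomyocyte membrane. Sodium and calcium channels depolarize the cell, potassium channels return it to rest and hold it there, pacemaker channels drive spontaneous depolarization, and gap junctions built of connexins pass the current from cell to cell. Mouse ventricle repolarizes quickly, largely through a transient outward current made by Kv4 pores with their partner KChIP2, while atrium and conduction tissue use some channels and connexins that ventricle uses little. Leukocytes carry other channels, which set the membrane potential for calcium entry or move protons during the oxidative burst.

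Levels are given as CPM, library-scaled counts after TMM normalization, a scaling that centres the bulk of genes. A member was called induced or repressed when edgeR's quasi-likelihood test gave a Benjamini-Hochberg FDR below 0.01 over all genes tested together with a change of at least 2-fold. In RNA of whole tissue, fewer cells of a type and less RNA per cell cannot be told apart. The cardiac identity of the samples was checked with 10 sarcomere genes, whose summed level was 32654 to 39970 CPM in the 12 control hearts. The 14 leukocyte markers summed to 426 to 1165 CPM in the same hearts. Markers of skeletal muscle, which include Acta1 and Ckm that heart also makes, summed to 2878 to 4269 CPM in controls, and those of Schwann cells and neurons to 34.6 to 46.3 CPM. The 4 D21 EAM libraries carry another library code than the other 20, so library code and disease cannot be told apart at D21.

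For 4 members around which the results turn, the 250 bases before the RefSeq transcription start are shown in the sense of the gene, taken from the RefSeq promoter table for GRCm38.p6. Kcnip2, Scn4b and Hcn2 were among the 4 members with the largest fall at D15, and Kcnj3 was repressed at both D15 and D21. Capitals mark the letters TCACAC, the core of the site bound by T-box factors.
Kcnip2, chr19:45816064-45816313, minus strand: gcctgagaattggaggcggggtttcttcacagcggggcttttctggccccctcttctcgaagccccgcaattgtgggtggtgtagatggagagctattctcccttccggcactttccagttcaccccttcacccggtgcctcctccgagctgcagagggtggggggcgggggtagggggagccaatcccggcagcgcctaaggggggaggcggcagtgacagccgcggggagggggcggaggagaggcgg
Scn4b, chr9:45138374-45138623, plus strand: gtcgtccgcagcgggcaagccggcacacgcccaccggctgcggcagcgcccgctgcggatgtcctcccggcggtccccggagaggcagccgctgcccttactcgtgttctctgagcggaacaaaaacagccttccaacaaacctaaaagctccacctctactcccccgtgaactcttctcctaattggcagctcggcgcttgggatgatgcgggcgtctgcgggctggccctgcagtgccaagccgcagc
Hcn2, chr10:79716384-79716633, plus strand: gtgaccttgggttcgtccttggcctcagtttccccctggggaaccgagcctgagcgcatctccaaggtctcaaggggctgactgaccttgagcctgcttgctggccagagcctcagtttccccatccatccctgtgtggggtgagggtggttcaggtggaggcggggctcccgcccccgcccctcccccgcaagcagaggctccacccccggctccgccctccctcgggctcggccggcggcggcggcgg
Kcnj3, chr2:55435720-55435969, plus strand: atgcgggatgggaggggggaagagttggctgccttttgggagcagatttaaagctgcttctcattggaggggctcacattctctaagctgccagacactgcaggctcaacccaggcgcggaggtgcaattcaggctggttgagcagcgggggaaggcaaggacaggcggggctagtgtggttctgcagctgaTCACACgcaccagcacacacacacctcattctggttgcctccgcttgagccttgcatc

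The stretches of Kcnip2, Scn4b and Hcn2 were rich in G and C, at 66.8%, 66.0% and 70.4%, and that of Kcnj3 held 58.4%. Over the 32851 promoters of the table, each from 250 bases before to 50 after the start, the median was 52.7%. The table held 23 of the 35 members, 14 of them repressed at D15. On either strand, TCACAC stood in 2 of the 23 (Kcnd3 and Kcnj3) and in 14.5% of all promoters, while CACGTG, the E-box of clock factors, stood in 3 (Kcnj2, Kcnn4 and Trpm7) and in 7.15%. The letters AGATAA, bound by factors of the GATA family, were found in 1 member (Gja1) and in 11.2% of all promoters. No match of one motif contains another. In Kcnj3 the marked letters begin 58 bases before the start. These matches are descriptions of the letters.

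In control hearts, transcript levels of the members ran from 0.129 to 120 CPM per kb of exon. Kcnk3 (TASK-1, a background potassium channel) had the highest level, with a median of 120 CPM per kb over the 12 hearts and a range of 105 to 142. Kcnip2 (KChIP2, the Kv4 partner) followed at 110 CPM per kb (98.4 to 125), and the ranges of these 2 genes overlapped. Abcc9 (SUR2, the sulphonylurea receptor of the ventricular KATP channel) stood at 70.8 CPM per kb and Gja1 (Cx43, the main ventricular connexin) at 59.8.

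The middle of the order was crowded. Members from Scn4b (a beta subunit of the voltage-gated sodium channel, 43.6 CPM per kb) down to Kcnj12 (Kir2.2, 12.4 CPM per kb) each overlapped the range of the next. Of the 34 neighbouring pairs in the order, 5 had ranges apart: Kcnip2 and Abcc9, Gja1 and Scn4b, Kcnj12 and Cacnb2, Hvcn1 and Kcna4, and Cacna1h and Kcnn4. Below 1 CPM per kb were Kcna4 (Kv1.4) at 0.467, Cacna1h (a T-type calcium pore) at 0.402, Kcnn4 (KCa3.1) at 0.140 and Kcna3 (Kv1.3) at 0.129.

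**Figure D1:**
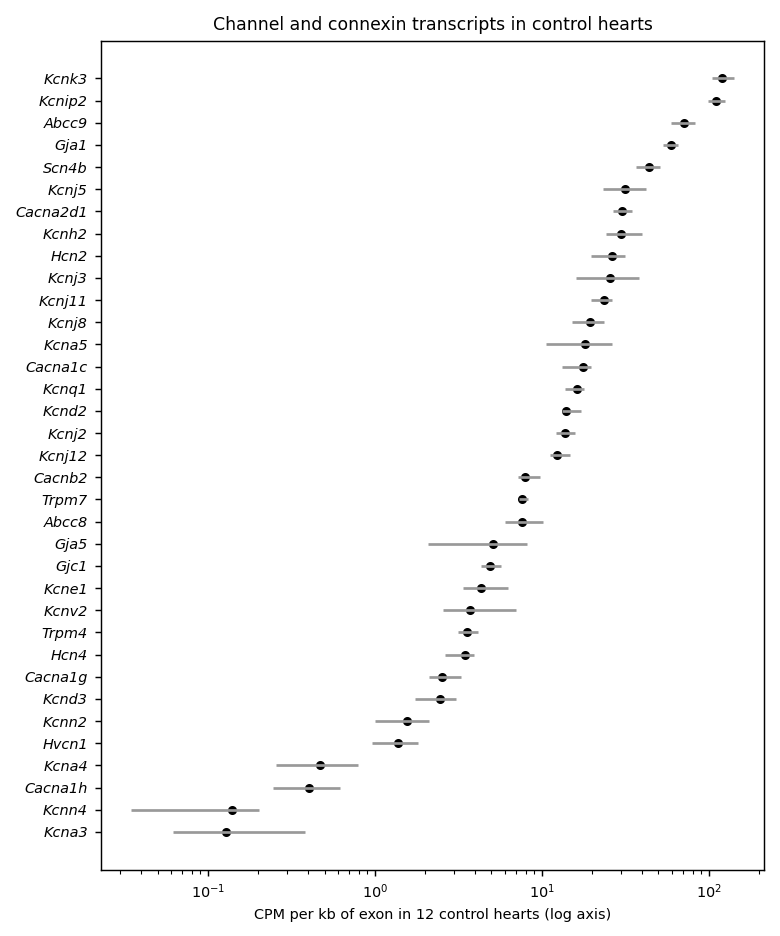
Transcript level of the 35 genes in the 12 control hearts, as CPM per kb of exon on a log axis. Points are medians and lines run from the lowest to the highest heart. Kcnk3 at 120 and Kcnip2 at 110 stand above the others, and Kcnn4 and Kcna3 lie lowest.

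Few members were called between controls of different days. Between D15 and D10 controls 0 of 35 members were called in the 24-sample fit, against 0.00613% of all 16318 genes tested called higher and 0.0858% called lower. At an unadjusted p under 0.05 there was 1 member, Gja5. Between D21 and D10 controls 1 member was called, Gja5 (Cx40, the connexin of atrium and conduction tissue), which rose by 1.59 ± 0.24 (SE) on the log2 scale (edgeR, adjusted p = 0.00792), against 0.123% of genes called higher and 0.0919% lower. In that comparison 5 members had an unadjusted p under 0.05 and the values ran from -0.81 to 1.59. The summed level of 6 atrial muscle genes was 219 to 464 CPM in D10 controls and 1472 to 2444 CPM in D21 controls. This call was lost without any 1 of 7 of the 8 control libraries involved, the exception being D21 control 4.

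At D10, no member was called in either direction, and neither was any other gene: the share called was 0.0% both ways over 15029 genes, although 2292 genes had an unadjusted p under 0.05. Among the 34 members tested (Kcna3 had too few reads), 6 had an unadjusted p under 0.05 and the smallest adjusted p was 0.328. edgeR's likelihood ratio test, DESeq2 and limma-voom also called 0 members, while a fit against the controls of all 3 days called 2, Kcnn4 and Hvcn1. The fitted log2 fold change was below zero for 25 of the 34 and its median was -0.22, beside -0.01 over all genes tested. All 10 sarcomere genes were below zero too, at a median of -0.21. With libraries scaled to those 10 genes, 14 of the 32 cardiac members were lower and 18 higher, at a median of 0.03.

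Single hearts set much of what could be seen at D10. Scn4b measured 217, 226, 192 and 254 CPM in control hearts 1 to 4, and 96.2, 183, 189 and 194 CPM in EAM hearts 1 to 4. One EAM heart, replicate 1, lay far below, and of the other 3 only replicate 4 reached the lowest control. That heart was the lowest of its group for 24 of the 32 members other than leukocyte channels. It also had the highest summed leukocyte markers (3370 CPM, against 814 to 1593 CPM in the other 3 EAM hearts) and the lowest sarcomere sum (20257 CPM, against 31763 to 36127 CPM). The part of these cells in the values was not tested.

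For 4 members the D10 hearts did not overlap, without reaching a call. Kcnj2 (Kir2.1, an inward rectifier that holds the resting potential) was at 75.6, 74.6, 86.2 and 73.2 CPM in controls and 40.5, 63.0, 49.4 and 61.6 CPM in EAM hearts. Every EAM heart lay below every control, with a log2 fold change of -0.54 ± 0.14 (SE, edgeR, adjusted p = 0.328). Kcnh2 (ERG, a delayed rectifier) was lower in all EAM hearts as well, and Gja5 and Kcnn4 were higher, at log2 fold changes of 0.95 and 1.63. The value of Gja5 turned to -0.05 against all 12 controls and to -0.07 with the level of atrial genes, which was higher in every D10 EAM heart than in every D10 control, as a covariate added after seeing the data. Kcnn4 was at 1.56 against all 12 controls, where it and Hvcn1 (1.15) were called induced, and at 1.09 with the covariate, where it was not called. Over all genes, EAM hearts lay wholly below controls for 3.75% and wholly above for 4.41%.

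At D15, 21 of 32 cardiac members were repressed and none was induced, while the leukocyte channels Hvcn1 and Kcnn4 were induced, as was Kcna3, which met the read minimum only through its EAM libraries. The largest falls were those of Kcnip2, to 14.7% of the control level, Scn4b, to 18.6%, Kcnv2 (Kv8.2, a silent Kv subunit), to 19.3%, and Hcn2 (the main ventricular pacemaker channel), to 20.3%. Every class of cardiac channel other than connexins and TRPM channels held repressed members. Of all 15693 genes tested, 12.9% were called lower and 18.1% higher. On the log2 scale the median change of the 32 was -1.21, beside 0.02 over all genes. Counting an FDR below 0.01 at any fold, 26 members fell, against 31.1% of all genes. EAM hearts lay wholly below controls for 26 of the 32, and for 35.9% of all genes.

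**Figure D2:**
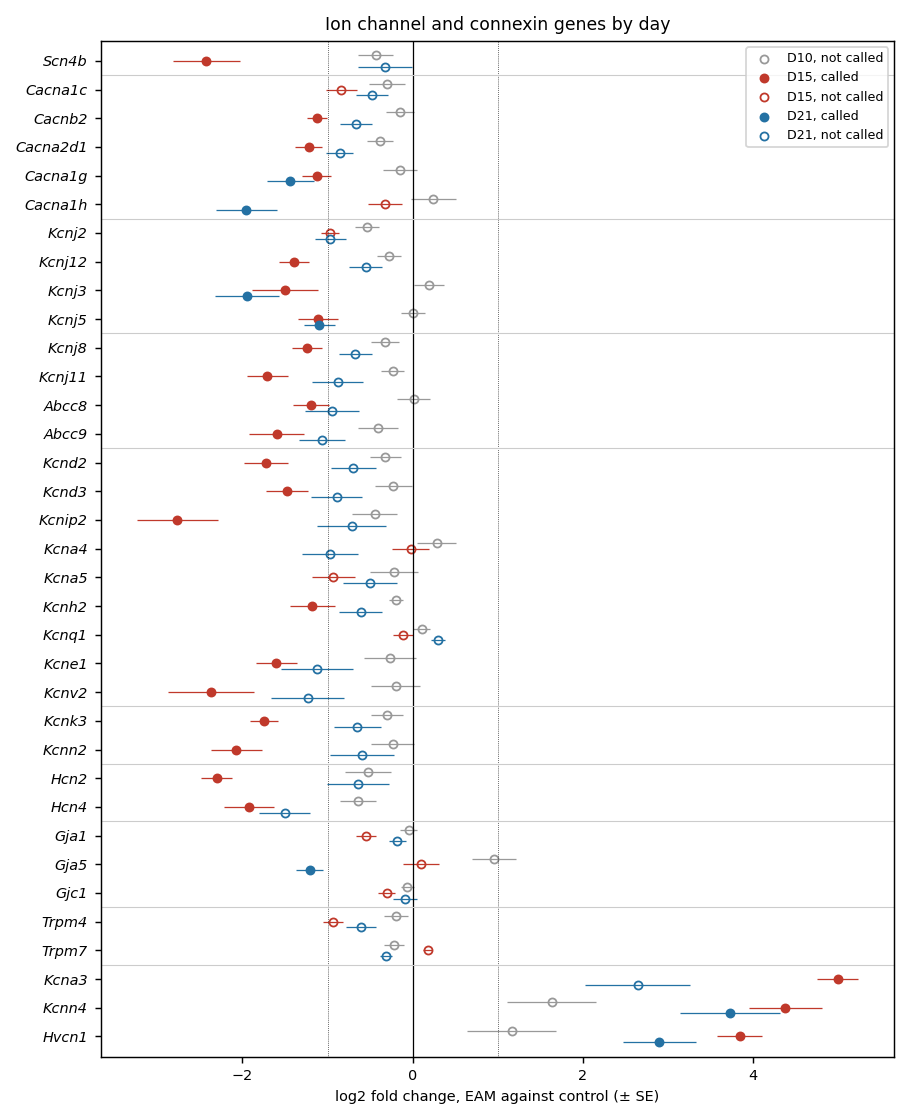
Log2 fold change between EAM and control hearts (x axis, with the standard error as a bar) for each gene (y axis, grouped by role) at D10 (grey), D15 (red) and D21 (blue). Filled points were called. 21 filled red points lie below -1, 5 filled blue points lie below -1, and the 3 leukocyte channels lie to the right.

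The sodium channel beta subunit Scn4b, which shapes the gating of the cardiac sodium channel, had the second largest fall. At D15 it measured 246, 225, 213 and 239 CPM in controls and 42.0, 14.4, 74.3 and 37.1 CPM in EAM hearts. The highest EAM heart had less than the lowest control by a wide margin, and the log2 fold change was -2.42 ± 0.39 (SE, edgeR quasi-likelihood, adjusted p = 0.000367). The call was kept without any 1 library, with values from -2.82 to -2.11.

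Of 5 calcium channel subunits, 3 were repressed. Cacna2d1, the alpha2delta subunit that brings L-type channels to the surface, measured 380, 333, 344 and 364 CPM in controls and 137, 116, 205 and 135 CPM in EAM hearts. Its log2 fold change was -1.22 ± 0.16 (SE, adjusted p = 9.54e-05). Cacnb2, the beta subunit, fell by 1.12 on the log2 scale (adjusted p = 2.58e-05) and Cacna1g, a T-type pore, by 1.13 (adjusted p = 0.000234). Cacna1c, the L-type pore itself, lay below controls in all 4 EAM hearts at 194 ± 53.5 CPM against 356 ± 38.6 CPM (SD, n = 4 each). It passed the FDR but not the fold limit, at -0.84 ± 0.18 (SE, edgeR, adjusted p = 0.0023). The other T-type pore, Cacna1h, overlapped between groups, with a log2 fold change of -0.32 (adjusted p = 0.173). Without EAM heart 2, Cacnb2 was at -0.98 and Cacna1g at -0.96, under the fold limit.

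Among inward rectifiers, 3 of 4 were repressed at D15. Kcnj12 (Kir2.2) measured 30.9, 40.8, 35.9 and 31.3 CPM in controls and 12.9, 9.01, 16.8 and 12.9 CPM in EAM hearts. The groups were well apart, with a log2 fold change of -1.39 ± 0.17 (SE, adjusted p = 7.59e-05). Kcnj2, its partner in the inward rectifier current, fell just short of the fold limit at -0.97 ± 0.11 (SE, adjusted p = 3.2e-05), with every EAM heart below every control.

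Kcnj3 and Kcnj5 (GIRK1 and GIRK4) form the channel by which vagal acetylcholine slows the atrium and sinus node. Kcnj3 was at 154, 151, 135 and 93.0 CPM in D15 controls and 40.7, 16.2, 78.1 and 49.4 CPM in EAM hearts. Its fall of 1.50 ± 0.39 on the log2 scale (SE, edgeR, adjusted p = 0.00631) lost the call without control 1, 2 or 3 or without EAM heart 1 or 4, over a range from -1.84 to -1.19. Kcnj5 fell by 1.11 ± 0.23 (SE, edgeR, adjusted p = 0.00188) and lost the call without control 2 or EAM heart 2, over a range from -1.32 to -0.92. Summed atrial genes were higher in controls 1 to 3 (1584 to 2045 CPM) than in every EAM heart (360 to 1364 CPM). Control 4 was at 245 CPM.

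All 4 genes of KATP channels, which open when ATP runs low, were repressed at D15. Kcnj11 (Kir6.2, the pore in cardiomyocytes) measured 81.1, 90.4, 88.2 and 85.9 CPM in controls and 24.8, 14.9, 39.6 and 24 CPM in EAM hearts, a log2 fold change of -1.71 ± 0.24 (SE, adjusted p = 0.000146). Abcc9 (SUR2) went from 550, 500, 540 and 636 CPM in controls to 151, 88.7, 316 and 161 CPM in EAM hearts. EAM heart 3 kept the highest level for both genes, and no EAM heart reached the lowest control. Kcnj8 (Kir6.1, the pore of vascular KATP channels) fell by 1.24 on the log2 scale (adjusted p = 0.000191) and Abcc8 (SUR1) by 1.19 (adjusted p = 0.00063), the latter at -0.99 without EAM heart 2.

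The 3 subunits of the fast transient outward current (Kcnip2, Kcnd2 and Kcnd3) were repressed, and Kcnip2 had the largest fall of the 32 cardiac members. It was at 373, 424, 372 and 433 CPM in D15 controls and at 56.2, 16.9, 116 and 41.0 CPM in EAM hearts. No EAM heart came near a control, and the log2 fold change was -2.76 ± 0.48 (SE, edgeR, adjusted p = 0.000563), between -3.33 and -2.43 with any 1 library left out. Kcnd2 (Kv4.2) measured 75.5, 70.2, 68.3 and 75.2 CPM in controls and 19.8, 11.3, 32.7 and 21.8 CPM in EAM hearts, a fold change of -1.72 ± 0.26 on the log2 scale (SE, adjusted p = 0.000213). Kcnd3 (Kv4.3) fell by 1.48 ± 0.25 (SE, adjusted p = 0.000487). All EAM hearts lay below all controls for these 3 genes.

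Of the other repolarizing channels, Kcnv2, Kcne1 and Kcnh2 fell, while Kcnq1, Kcna4 and Kcna5 were not called. Kcnv2 went from 16.6, 18.6, 23.1 and 17.4 CPM in controls to 3.70, 0.841, 7.85 and 2.05 CPM in EAM hearts, at -2.37 ± 0.51 on the log2 scale (SE, adjusted p = 0.00202). Kcne1 (minK, a subunit that slows the Kv7.1 current) went from 10.9, 20.3, 11.6 and 13.3 CPM to 3.25, 5.71, 3.88 and 5.06 CPM, at -1.60 ± 0.24 (SE, adjusted p = 0.000232). In both, the groups were apart. Kcnh2 fell by 1.18 ± 0.27 (SE, adjusted p = 0.00276) and lost the call without EAM heart 1 or 2, over a range from -1.41 to -0.94.

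Kcnq1 (Kv7.1, the pore that minK joins) was at 60.7, 72.6, 63.1 and 66.6 CPM in controls and 55.2, 47.4, 65.9 and 68.7 CPM in EAM hearts at D15. The groups overlapped, with a log2 fold change of -0.11 ± 0.12 (SE, adjusted p = 0.413). Kcna4, the pore of the slow transient outward current, overlapped likewise at -0.02 ± 0.21 (SE, adjusted p = 0.927), at about 2 CPM in both groups. Kcna5 (Kv1.5, the ultrarapid current) passed the FDR but not the fold limit, at -0.93 (adjusted p = 0.00763), with overlapping hearts.

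Background, calcium-activated and pacemaker channels were repressed without exception at D15. Kcnk3, which had the highest median per kb of exon in controls, went from 456, 565, 551 and 497 CPM to 133, 116, 203 and 149 CPM. Its log2 fold change was -1.75 ± 0.17 (SE, edgeR, adjusted p = 1.43e-05). Kcnn2 (SK2, opened by intracellular calcium) went from 13.7, 13.5, 9.74 and 11.5 CPM to 1.96, 1.54, 4.56 and 3.20 CPM, at -2.08 ± 0.30 (SE, adjusted p = 0.00018). No EAM heart reached a control in either gene, and the EAM hearts for Kcnn2 ranged widely among themselves.

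Hcn2 measured 84.8, 88.2, 88.5 and 76.3 CPM in controls and 15.4, 11.1, 22.9 and 17.4 CPM in EAM hearts. This was the smallest adjusted p among the cardiac members (edgeR, 4.99e-06), with a log2 fold change of -2.30 ± 0.18 (SE). Hcn4, the pacemaker channel of the sinus node, was at 22, 20.3, 21.7 and 23.8 CPM in controls and at 5.95, 2.52, 8.91 and 5.25 CPM in EAM hearts, at -1.93 ± 0.29 (SE, adjusted p = 0.000257). Neither gene overlapped between groups.

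The 3 connexins were not repressed at D15. Gja1 measured 646, 610, 544 and 568 CPM in controls and 394, 322, 447 and 413 CPM in EAM hearts. It was lower in every EAM heart, at 68.3% of control, and passed the FDR but not the fold limit (-0.55 ± 0.11, SE, adjusted p = 0.00166). Gja5 overlapped, at 28.5, 35.3, 30.0 and 15.3 CPM in controls and 26.3, 27.4, 32.4 and 27.4 CPM in EAM hearts, with a log2 fold change of 0.09 (adjusted p = 0.702). Gjc1 (Cx45, found in nodal tissue) was at 81.0% of control (adjusted p = 0.0201). Of the TRPM channels, Trpm4, a cation channel opened by calcium, passed the FDR alone at -0.94 (adjusted p = 6.4e-05). Trpm7, a channel fused to a kinase and present in most cells, lay above controls in all 4 EAM hearts by only 0.17 on the log2 scale (adjusted p = 0.0159).

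**Figure D3:**
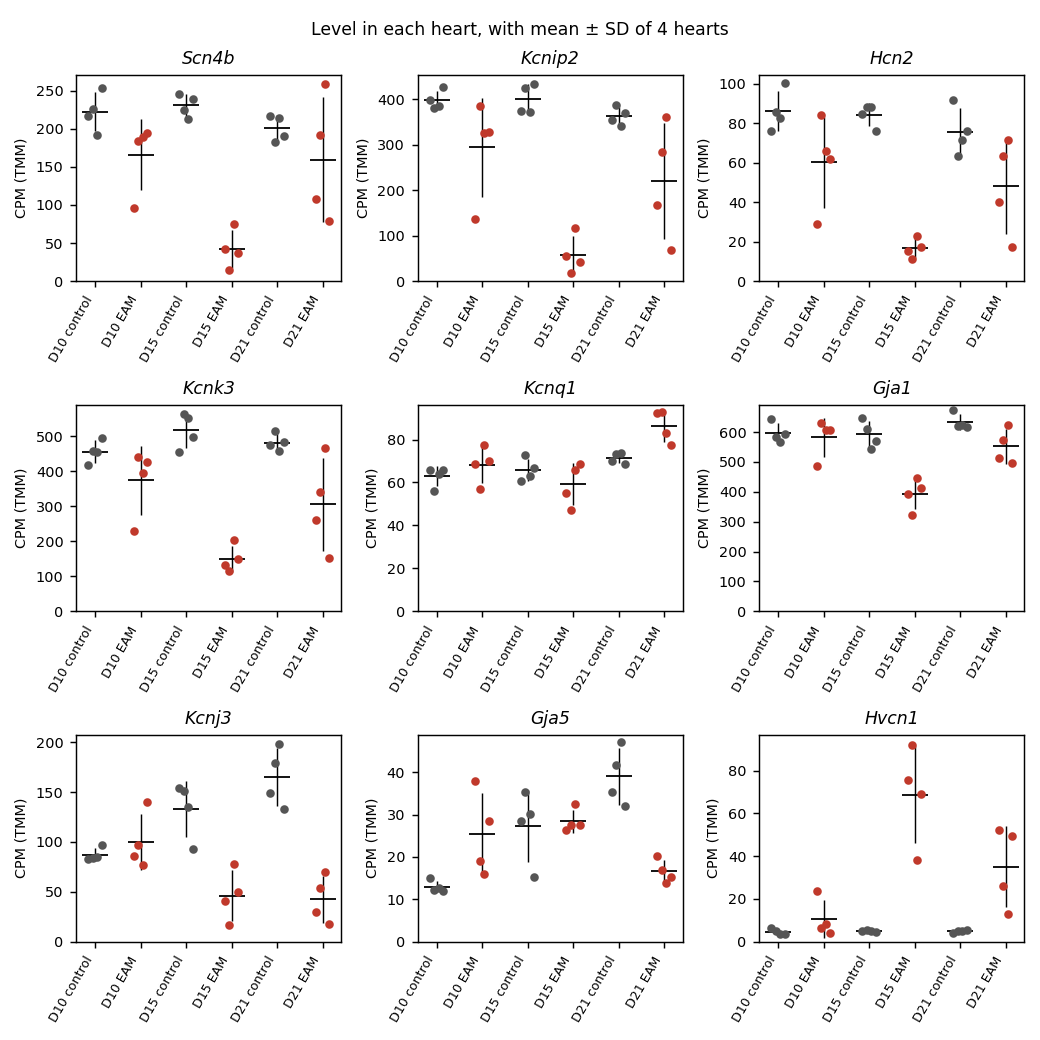
CPM of 9 genes in each heart (y axis from 0), with controls in grey and EAM hearts in red by day (x axis). Black marks give the mean and its SD over 4 hearts. Kcnip2 at D15 sits at 16.9 to 116 CPM in EAM hearts and at 372 to 433 CPM in controls, while Kcnq1 overlaps.

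EAM hearts at D15 differed among themselves in a similar way across members. Replicate 2 had the lowest level for 19 of the 21 repressed members and replicate 3 the highest for 20. The sarcomere sum was 9480 CPM in replicate 2 and 22264 CPM in replicate 3, with 12781 and 14412 CPM in the other 2. The leukocyte sum was highest in replicate 2 (5242 CPM) and lowest in replicate 3 (3732 CPM), and in D15 controls it was 488 to 562 CPM. The 7 fibroblast genes summed to 14975, 16941, 8225 and 16749 CPM in EAM hearts 1 to 4 and to 1958 to 2486 CPM in controls, so replicate 3 was the lowest EAM heart there too. The mitochondrial share of counts also lay apart, at 6.1% to 7.14% in controls of that day and 3.19% to 4.31% with EAM. Of the 14 leukocyte markers, 13 were induced at D15. The part of the cell mixture in each member's fall was not tested.

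Genes of the contractile apparatus fell as well, so the members were also set against them. At D15, 7 of the 10 sarcomere genes were repressed and their median change was -1.21 on the log2 scale, the same to 2 decimals as the median of the 32 cardiac members. When libraries were scaled to those 10 genes, the median of all genes moved to 1.31 and 9667 genes were called higher and 148 lower. On this scale the median of the 32 members was 0.00, with 17 lower and 15 higher, and 4 were called lower and 4 higher, in place of 21 and 0.

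The 4 members called lower relative to the sarcomere genes were Kcnip2 (-1.70, edgeR adjusted p = 5.9e-05), Scn4b (-1.32, adjusted p = 0.00014), Kcnv2 (-1.31, adjusted p = 0.0034) and Hcn2 (-1.10, adjusted p = 6.1e-05). Kcnn2, Hcn4 and Kcnk3 passed the FDR on this scale but not the fold limit, at -0.92, -0.77 and -0.53. The 4 called higher relative to sarcomere genes were Trpm7 (1.47), Gja5 (1.35), Kcna4 (1.25) and Kcnq1 (1.14). Between them lay Abcc8, Cacna2d1, Kcnj8 and Kcnh2, between -0.02 and 0.00. In all, 13 members that were below zero after TMM were above it here. Of these, 6 were called on one of the scales, namely Cacnb2, Kcnj8, Kcnj5 and Cacna1g after TMM and Kcna4 and Kcnq1 here. The other 7 (Kcnj2, Trpm4, Kcna5, Cacna1c, Gja1, Cacna1h and Gjc1) were called on neither and ran from 0.29 to 0.96 here, where Gjc1 (0.96), Cacna1h (0.90) and Gja1 (0.70) passed the FDR but not the fold limit.

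**Figure D4:**
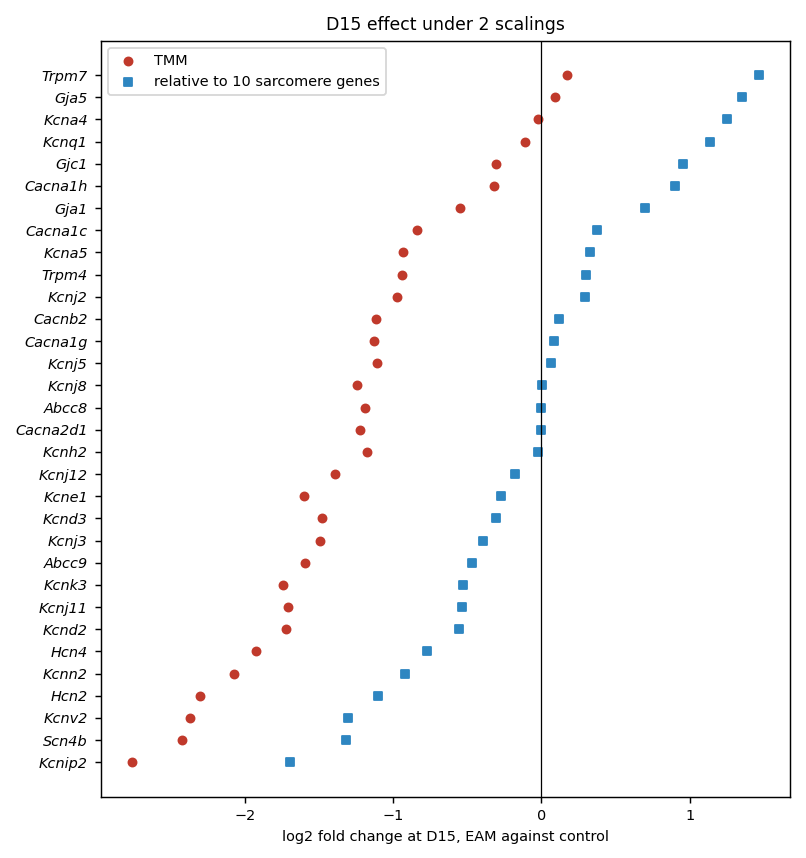
Log2 fold change at D15 (x axis) of the 32 cardiac genes (y axis, sorted) after TMM normalization (red circles) and after scaling to 10 sarcomere genes (blue squares). The blue points centre on zero, with Kcnip2 at -1.70 and Trpm7 at 1.47 as the ends.

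Ratios of partner genes within a heart do not depend on any scaling. Of 10 pairs compared, 6 differed between EAM and control hearts at D15, each with all 4 EAM hearts on one side (exact two-sided permutation test, p = 0.0286, the smallest that 4 against 4 allows, adjusted p = 0.0476 over the 10). The ratio of Kcnip2 to Kcnd2, per kb of exon, went from 8.20 in controls to 3.42 in EAM hearts, and that of Kcne1 to Kcnq1 from 0.264 to 0.0952. Cacna1g to Cacna1h went from 6.69 to 3.77, Gja1 to Gja5 from 12.7 to 7.74, Kcnd2 to Kcnd3 from 5.18 to 4.32, and Kcnj3 to Kcnj5 from 0.798 to 0.555. In words, the chaperone fell more than its Kv4 pore, and minK more than Kv7.1.

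The other 4 pairs at D15 (Kcnj2 to Kcnj12, Kcnj11 to Kcnj8, Abcc8 to Abcc9, Hcn2 to Hcn4) had overlapping groups. At D10 and D21 no pair passed the adjustment (smallest adjusted p = 0.0952 and 0.0571, exact permutation test), with 3 and 5 pairs whose groups were apart. Since no p can go below 0.0286 here, an adjusted p under 0.05 over 10 pairs needs at least 6 pairs apart, so the days were not shown to differ. The Gja1 to Gja5 ratio was lower in EAM hearts at D10 (13.6 against 25.7 in controls) and higher at D21 (18.7 against 9.19), apart in both cases. Atrial genes were higher in EAM hearts at D10 and lower at D21.

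Hvcn1 and Kcnn4 were induced at D15. Hvcn1, the proton channel of phagocytes and B cells, measured 4.90, 5.55, 4.82 and 4.48 CPM in controls and 75.4, 92.1, 38.1 and 69.2 CPM in EAM hearts, at a log2 fold change of 3.84 ± 0.26 (SE, adjusted p = 1.86e-06). Kcnn4, a calcium-activated potassium channel of T cells and macrophages, went from 0.573, 0.768, 1.04 and 0.177 CPM to 12.5, 17.7, 6.84 and 15.6 CPM, at 4.38 ± 0.43 (SE, edgeR, adjusted p = 1.6e-05). In both genes EAM heart 3 was the lowest of the 4, as it was for the leukocyte sum.

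Kcna3, the Kv channel of activated T cells, rested on 2 to 4 reads per control library and 128 to 181 reads per EAM library at D15. Its level was 0.156, 0.118, 0.207 and 0.236 CPM in controls and 5.87, 4.66, 5.40 and 6.99 CPM in EAM hearts. The log2 fold change was 4.99 ± 0.24 (SE, edgeR, adjusted p = 2.11e-07), a size set partly by the few control reads. It met the minimum of 10 reads in 4 libraries only through the EAM hearts, so with an EAM library left out it was not tested. With no minimum it was also called (4.99, edgeR, adjusted p = 1.98e-08). Ptprc, the pan-leukocyte marker CD45, rose by 3.98 on the same scale, from 18.0 ± 1.92 to 276 ± 30.9 CPM (SD, n = 4 each).

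At D21, 5 members were repressed (Kcnj3, Cacna1h, Cacna1g, Gja5 and Kcnj5) and 2 induced (Kcnn4 and Hvcn1). Of all 15266 genes, 1.16% were called lower and 4.13% higher. On the log2 scale the median change of the 32 cardiac members was -0.71, beside -0.01 over all genes, and 31 of the 32 values were below zero. With an FDR below 0.01 at any fold, 7 members fell, against 3.1% of all genes. EAM hearts lay wholly below controls for 20 of the 32, and for 18.7% of all genes. No D21 call survived every omission of 1 library: 0 members were called without any 1 control or without EAM heart 1 or 2, while 11 were repressed without EAM heart 3. The fold changes of the 5 repressed members kept their direction throughout, from -2.29 to -0.94, with adjusted p up to 0.0374.

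Kcnj3 measured 149, 179, 198 and 133 CPM in D21 controls and 29.6, 53.2, 69.7 and 17.4 CPM in EAM hearts. The groups were far apart, with a log2 fold change of -1.95 ± 0.38 (SE, edgeR, adjusted p = 0.00926). Kcnj5 went from 166, 179, 197 and 145 CPM to 75.1, 89.1, 102 and 52.4 CPM, at -1.10 ± 0.19 (SE, adjusted p = 0.00692). Gja5 went from 35.3, 41.6, 47.0 and 32.1 CPM to 20.3, 17.0, 13.9 and 15.1 CPM, at -1.21 ± 0.16 (SE, adjusted p = 0.00473). All 3 encode proteins known for high expression in atrium.

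Both T-type calcium pores were repressed at D21. Cacna1h measured 4.22, 5.76, 6.04 and 4.56 CPM in controls and 0.937, 1.69, 2.14 and 0.552 CPM in EAM hearts, at -1.95 ± 0.36 (SE, adjusted p = 0.00813). Cacna1g went from 29.6, 30.8, 33.2 and 24.9 CPM to 11.1, 12.7, 14.8 and 4.91 CPM, at -1.44 ± 0.28 (SE, edgeR, adjusted p = 0.00954). No EAM heart reached a control in either gene. Hcn4 missed the call narrowly, at -1.50 ± 0.30 (SE, adjusted p = 0.0101), with its EAM hearts at 6.61, 11.3, 10.3 and 3.53 CPM against 23.9, 22, 23.5 and 21.1 CPM.

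The tissue taken at D21 differed in its atrial transcripts. The 6 atrial muscle genes (Myl4, Myl7, Sln, Bmp10, Stard10 and Dkk3) summed to 1472 to 2444 CPM in D21 controls and to 46.4 to 91.6 CPM in D21 EAM hearts. All 6 were repressed at D21, by a median of -7.02 on the log2 scale. The sum was 219 to 464 CPM in D10 controls and 523 to 1794 CPM in D10 EAM hearts, so at D10 the order was the opposite. At D15 it was 1584, 2045, 1825 and 245 CPM in controls and 686, 360, 1364 and 873 CPM in EAM hearts. The groups overlapped only through control 4, and controls 1 to 3 lay above every EAM heart. The part of atrial tissue in the D21 values was not tested, and library code, atrial content and disease cannot be told apart there.

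Among the 12 control hearts alone, 3 of the 7 members examined followed the atrial level. The summed atrial level also differed by day, at 219 to 464 CPM in D10 controls and 1472 to 2444 CPM in D21 controls. The permutation test below moved values across days, so its p does not separate a relation between hearts from a difference between days. No p was computed with day means subtracted. Within D15, control 4 stood apart (245 CPM, against 1584 to 2045 CPM in the others). For Kcnj3, Pearson's r of log2(CPM + 1) against the mean of the 6 atrial genes was 0.947 and Spearman's rho 0.860 (permutation test with 100000 resamples, adjusted p = 0.000257 and 0.00147). Without the 2 hearts farthest from the median r was 0.940, and with each day's mean subtracted it was 0.819. For Kcnj5 the values were r = 0.942 and rho = 0.909 (permutation, adjusted p = 0.000105 and 0.00077), with 0.930 and 0.835 under those changes. For Gja5 they were r = 0.975 and rho = 0.881 (permutation, adjusted p = 0.000105 and 0.00122), with 0.983 and 0.946.

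Kcna5, Hcn4, Cacna1g and Kcnk3 gave r of -0.627, 0.592, 0.548 and 0.397, none past an adjusted p of 0.05 in the permutation test over the 7 members. With day means subtracted, r was -0.489 for Hcn4 and -0.0176 for Cacna1g, so their sign depended on the day. The control heart with the lowest atrial sum at D15, replicate 4 at 245 CPM, also had the lowest Kcnj3, Kcnj5 and Gja5 of its group.

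**Figure D5:**
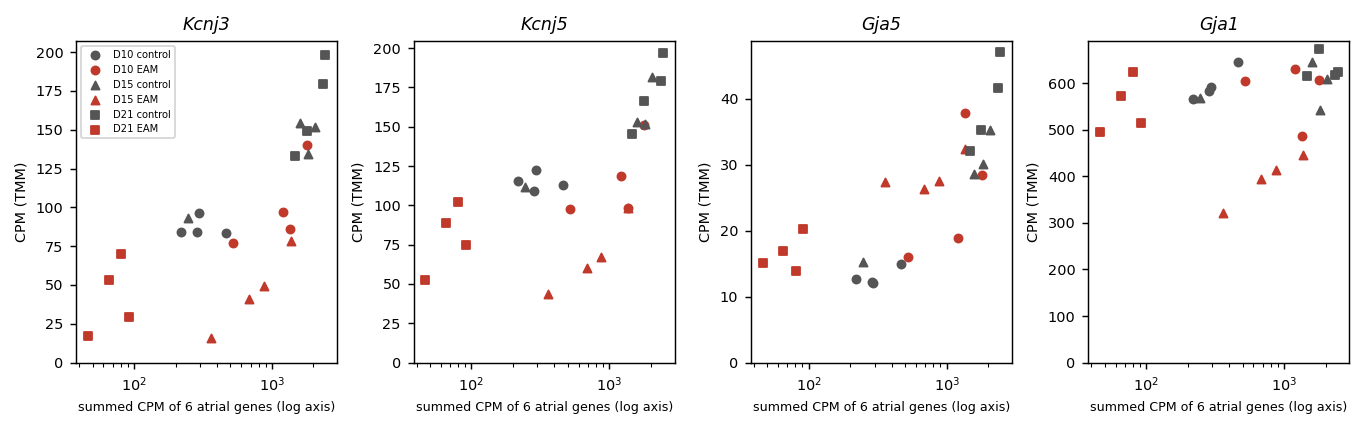
CPM of Kcnj3, Kcnj5, Gja5 and Gja1 (y axes from 0) against the summed CPM of 6 atrial genes (x axis, log scale) in the 24 hearts, controls grey and EAM red, with the symbol giving the day. The D21 EAM hearts lie at 46.4 to 91.6 CPM of atrial genes, left of every other heart, and the D15 EAM hearts lie under all control points for Kcnj3 and Kcnj5.

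Scn4b, Kcnip2, Hcn2 and Kcnk3, picked for their large falls at D15, had fitted values closer to controls at D21. Smaller values at another day can follow from that choice alone. In the direct test of the D15 to D21 change, only Scn4b of these was called. Scn4b was at 217, 183, 215 and 190 CPM in controls and 107, 192, 259 and 78.6 CPM in EAM hearts, with a log2 fold change of -0.33 ± 0.32 (SE, adjusted p = 0.437). Kcnip2 was at 355, 388, 342 and 370 CPM in controls and 168, 284, 360 and 69.3 CPM in EAM hearts, at -0.72 ± 0.40 (SE, edgeR, adjusted p = 0.189). Hcn2 overlapped too, at -0.64 (adjusted p = 0.192), and Kcnk3 at -0.65 (adjusted p = 0.0975). EAM heart 3 sat within or above the control range for Scn4b and Kcnip2, and hearts 1 and 4 well below it.

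Replicate 4 was the lowest D21 EAM heart for 30 of the 32 cardiac members and replicate 3 the highest for 25. Their sarcomere sums were 17712 and 39271 CPM, and their leukocyte sums 4111 and 1331 CPM. Kcnj2 and Cacna2d1 passed the FDR but not the fold limit at D21, at -0.97 (adjusted p = 0.00924) and -0.86 (adjusted p = 0.00841). The other KATP, Kv4, Kv and TRPM members had log2 fold changes from -1.23 (Kcnv2) to 0.30 (Kcnq1) and none passed the FDR of 0.01. Kcnq1 was the exception in direction, with 92.5, 92.7, 83.1 and 77.6 CPM in EAM hearts, all above the 68.4 to 73.6 CPM of controls (edgeR, adjusted p = 0.0242). Gja1 was at 88.3% of control and overlapped (adjusted p = 0.18), as did Gjc1 (adjusted p = 0.621).

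Of the leukocyte channels at D21, Hvcn1 was at 52.3, 25.8, 12.8 and 49.3 CPM in EAM hearts and 4.12 to 5.17 CPM in controls, at 2.89 ± 0.43 (SE, adjusted p = 0.00553). Kcnn4 was at 10.7, 5.94, 2.41 and 16.1 CPM in EAM hearts and 0.432 to 0.768 CPM in controls, at 3.73 ± 0.59 (SE, edgeR, adjusted p = 0.00615). Kcna3, at 2.64 ± 0.62 (SE, edgeR, adjusted p = 0.016), was higher in every EAM heart and did not pass the FDR. It barely met the read minimum at D21. When 1 of the 8 libraries was left out, it could still be tested in only 4 cases. D21 EAM heart 3 was the lowest of its group for all 3 genes.

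The change of the EAM effect between days was tested directly in a fit of all 24 hearts. From D10 to D15 the effect became more negative for 10 members and more positive for 2, against 7.35% and 5.38% of 16318 genes. The 10 were Kcnip2 (-2.37 ± 0.62, SE, edgeR, adjusted p = 0.0055), Scn4b (-2.04), Kcnn2 (-1.89), Hcn2 (-1.82), Kcnj11 (-1.52), Kcnk3 (-1.50), Kcnd2 (-1.45), Kcnj5 (-1.17), Kcnj12 (-1.16) and Cacnb2 (-1.02), and the 2 were Kcna3 (3.97) and Hvcn1 (2.62). Scn4b, Kcnj11 and Kcnk3 kept the call without any 1 of the 16 libraries. Kcna3 had too few reads to be tested at D10 alone, and its call was lost without D10 control heart 3. The call of Hvcn1 was lost without D10 control heart 1. The count ranged from 6 without D15 EAM heart 2 to 23 without D15 EAM heart 3, and was 22 without D10 EAM heart 1.

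From D15 to D21 the effect rose for 1 member and fell for 2, against 2.74% and 0.919% of genes. Scn4b regained 2.12 ± 0.50 on the log2 scale (SE, edgeR, adjusted p = 0.00513), while Cacna1h changed by -1.61 ± 0.42 (SE, adjusted p = 0.00881) and Gja5 by -1.29 ± 0.33 (SE, adjusted p = 0.0076). Hcn2 (1.69, adjusted p = 0.0103) and Kcnip2 (2.08, adjusted p = 0.0179) lay outside the limit. The count ranged from 0, without any 1 of several libraries (D21 EAM heart 2 and D15 EAM heart 1 among them), to 10 without D21 EAM heart 4.

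Other channel genes of the same families were counted from a list of 57, of which 50 were tested at D15. There 16 were repressed and 11 induced, against 12.9% and 18.1% of all genes. Among the repressed were Kcna1 (-2.28), Cacng6 (-2.04, a gamma subunit of calcium channels) and Kcna7 (-1.89). Among the induced were Kcnab2 (3.36, a Kv beta subunit also found in leukocytes), Cacna1d (2.78, the L-type pore of nodal and atrial cells), Kcne4 (2.73) and Panx1 (2.66, a pannexin that releases ATP). At D21, where 1.16% of all genes were called lower and 4.13% higher, 5 of 51 were induced, with Kcnab2 (2.26), Kcne4 (2.16), Panx1 (2.03) and Kcnj10 (1.77) in front, and 3 were repressed: Fgf12 (-5.46, a modulator of sodium channels), Cacna2d2 (-3.05) and Kcna1 (-2.03). Fgf12 went from 41.5 to 0.927 CPM, at the day when atrial genes and library code also differed between the groups.

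Of 11 other channels known from leukocytes and tested at D15, 8 were induced and 0 repressed, against 18.1% and 12.9% of all genes, with Trpm2 (4.83), Mcoln2 (4.08), Kcnk13 (3.24) and Trpv2 (2.97) the largest. At D21, 5 of 11 were induced, against 4.13% of all genes, and 2 lay below zero. Among the induced were Mcoln2 (2.75), Trpm2 (2.70), Trpv2 (2.08) and P2rx7 (1.35, the ATP-gated channel of macrophages).

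Of 12 adhesion genes of the intercalated disc, where gap junctions sit, 2 were repressed at D15, against 12.9% of all genes: Dsc2 (-1.17, a desmosomal cadherin) and Ctnna3 (-1.11, an alpha catenin). Ctnna3 alone was repressed at D21 (-1.03). The median of the 12 stood at -0.63 on the log2 scale at D15 and at -0.29 at D21. Of other cell types at D15, to be read against the same shares of all genes (18.1% higher and 12.9% lower), 3 of 7 fibroblast genes were induced, 1 of 6 endothelial genes, 2 of 8 smooth muscle and pericyte genes and 1 of 6 Schwann cell and neuron genes were repressed. Of the 4 skeletal muscle genes tested 1 was induced and 1 repressed, and of 13 clock genes with Klf15, 1 was induced and 2 were repressed.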

How the data were processed

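The authors extracted RNA from hearts, made poly(A) libraries with a directional kit, aligned read pairs to GRCm38 with HISAT2 2.0.4, removed duplicates with Picard and counted reads on Ensembl genes with featureCounts (per the labels, the study's methods and the submitters' processing notes). Sources used here do not give the strand setting. The deposited values are raw counts per gene. Of 41480 rows, 92 are spike-ins with 0 reads. Duplicate removal can lower the counts of abundant genes.

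Symbols, positions and exon lengths came from GENCODE M21. At each day, genes reaching 10 reads in 4 or more of 8 libraries were tested with edgeR 4.0.16 (glmQLFit, TMM) in R 4.3.3, without pairing. Changes of effect used all 24 libraries. CPM was TMM-scaled over the 24. Ratios used counts + 0.5 per kb. A count of 3 is 0.120 to 0.190 CPM in these libraries, a floor that covers counting error only. Alternatives were the likelihood ratio test, DESeq2 1.42.0, limma 3.58.1 (voom), other scalings, filters, limits and control sets, a block, and leaving out each library. The atrial level as a covariate was added after seeing the data. The scripts were tested on simulated data. Tables and plots used Python 3.11.15 with pandas 2.3.3, numpy 2.4.6, scipy 1.17.1 and matplotlib 3.10.9.

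The members and lists were chosen with earlier results of these data known. All 35 members are named. Of the lists of other channels, other leukocyte channels and disc adhesion genes, up to 4 called genes per direction and day with the largest fitted change and a mean of at least 1 CPM are named, with Ptprc as leukocyte reference. One gene that this rule would name is not reported here.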

Additional observations from a re-analysis of the deposited data

Results flagged for a closer look

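In 10 of 210 groups of 4 hearts, the highest or lowest heart lay further from the others than Dixon's test allows at 95%, and chance alone gives about 1 in 20 groups. At D10, EAM heart 1 was low for Scn4b (96.2 CPM) and Kcne1 (5.97 CPM) and high for Kcna3 (1.95 CPM), EAM heart 4 was high for Hcn4 (17.3 CPM), and control heart 4 was high for Kcnj3 (96.5 CPM). At D15, control heart 1 was low for Kcnd3 (21.8 CPM) and EAM heart 4 low for Trpm7 (87.3 CPM). At D21, control heart 1 was high for Kcnd2 (80.5 CPM) and Gja1 (674 CPM), and control heart 2 was low for Kcnn4 (0.432 CPM).

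The EAM effect differed between days by a test of the difference for 15 values, among them that of Kcna3, which had too few reads to be tested at D10 alone. From D10 to D15 the difference of log2 effects was -2.04 for Scn4b, -1.02 for Cacnb2, -1.16 for Kcnj12, -1.17 for Kcnj5, -1.52 for Kcnj11, -1.45 for Kcnd2, -2.37 for Kcnip2, -1.50 for Kcnk3, -1.89 for Kcnn2, -1.82 for Hcn2, 3.97 for Kcna3 and 2.62 for Hvcn1. From D15 to D21 it was 2.12 for Scn4b, -1.61 for Cacna1h and -1.29 for Gja5.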

How the results depend on the processing

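The D15 calls were the steadiest. The likelihood ratio test, DESeq2, limma-voom, other size factors, total counts, no low-count filter, all 12 controls, the 24-library fit and the atrial covariate, which was added after seeing the data, gave 18 to 22 repressed and 3 induced members, and leaving out 1 library 16 to 24 and 2 to 3. Scaling to sarcomere genes gave 4 repressed and 7 induced at D15, 0 and 0 at D21 (Kcnj3 at -1.75 and Cacna1h at -1.72 there, with 28 of 32 cardiac members below zero and a median of -0.49, beside 0.37 over all genes), 6 changed effects from D10 to D15 and 7 from D15 to D21. On that scale 13 signs turned at D15, 6 of them for members called on either scale: Cacnb2 (0.12), Kcna4 (1.25), Kcnj8 (0.0014), Kcnq1 (1.14), Kcnj5 (0.065) and Cacna1g (0.082). The sign also turned for 13 changes from D10 to D15, among them 1 called, Cacnb2 (0.017), and for 19 from D15 to D21, 11 at D10 and 3 at D21, none of them called on either scale. The scale itself moved with the 10 genes, whose median change was -1.21 at D15 and 1.10 from D15 to D21.

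At D10 all 12 controls gave 2 induced members, Kcnn4 and Hvcn1, and the other settings run 0. At D21 limma-voom gave 0 induced and 2 repressed members. Leaving out 1 library gave 0 to 3 induced and 0 to 11 repressed at D21, 6 to 23 changed effects from D10 to D15, 0 to 10 from D15 to D21, 0 to 1 changed members between D15 and D10 controls (1 without D15 control heart 4) and 0 to 1 between D21 and D10 controls. An FDR below 0.05 gave 22 and 8 changed effects, and the likelihood ratio test gave 18 from D10 to D15 and 6 from D15 to D21. The cause was not tested.

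Same-numbered hearts share only a number: their deviations correlated between 0.0966 and 0.303 at D21, with 2 of 4 pairs over 0.1 at D10 and 0 of 4 at D15. With the replicate block 20 members were repressed and 3 induced at D15, 5 and 3 at D21, 17 effects changed from D10 to D15 and 0 from D15 to D21.

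Depth limits Kcna3 and Kcnn4, which had 2 to 20 reads in control libraries.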
